A study of Bos taurus and Bos indicus x Bos taurus with 938 samples.

Results

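The comparison described here sets bovine embryos at the 8-cell stage against embryos at the 2-cell stage, all made by in vitro fertilisation (IVF) and all profiled blastomere by blastomere for open chromatin. Its members were chosen from the sample titles, by the fertilisation method and by the cell number that each title gives. No measured value entered that rule, though earlier results of these data were known when it was set. The members made up 28.3% of the blastomeres in the deposited table, and the exact numbers are given under processing. The 8-cell group came from 14 embryos, of which 8 had all 8 blastomeres in the table, 4 had 7, 1 had 6 and 1 had 5. The 2-cell group came from 67 embryos, of which 62 had both blastomeres and 5 had 1. The embryo, known from the blastomere label, was the replicate throughout, and embryos are named as the labels write them (blastomere_610 for the embryo of 8 blastomeres, A to H).

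The wider series compares IVF embryos with SCNT embryos, which are made by putting the nucleus of a body cell into an egg without its own (nuclear transfer). All members shared their origin: abattoir oocytes matured in the dish, fertilised with thawed semen, cultured, and taken apart into single blastomeres. The labels name the IVF samples Bos indicus x Bos taurus, the zebu and taurine cattle cross. The labels name no treatment or genetic change for either stage, and the parents and sex of the embryos were not used here. Each blastomere was its own ATAC-seq library, tagmented with a volume of transposase that the labels say was set by batch. The highest overlap of open regions between any pair of members was a Jaccard index (regions open in both over regions open in either) of 0.267, against a median of 0.0843, so no pair looked like 1 library entered more than once.

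In ATAC-seq a transposase, Tn5, inserts adapters where DNA is not wrapped tightly in nucleosomes, so sequenced fragments mark accessible DNA. The mammalian embryo begins with maternal RNA and a nearly silent genome, and it divides without growing. In cattle the main wave of embryonic transcription falls around the 8-cell stage, and chromatin opens at genes and regulatory elements as that wave approaches. A diploid cell carries few copies of any site, so a single-cell library reads any 1 site as open or not open. Early cleavage in cattle embryos made in the dish is also known for frequent errors of chromosome segregation, in which a daughter cell gains or loses a whole chromosome.

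The deposited table gives each region a 1 (open) or a 0 in every blastomere. The regions carry running numbers and no genome positions or gene names, so results are given by region number and by block. The table's columns carry running numbers too, and the link from a column to a title was read from the numbering, an inference that no label states. Across the numbering, regions fell into 29 consecutive blocks of 4660 to 16980 regions whose regions were open together in the same blastomeres. A mixed segment and a pair of smaller blocks, here called P (4350 regions) and Q (400 regions), followed them. Cattle are known to have 29 autosomes and a pair of sex chromosomes. The files do not tie any block to a chromosome, and this was not tested because no genome of the files' build was used here.

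Open calls stood in for depth, which is not given in reads. A 2-cell blastomere had a median of 10168 open calls and an 8-cell blastomere a median of 13374. The range ran from fewer than 1000 at both stages to 106279 at the 2-cell stage and 46836 at the 8-cell stage. Per embryo, the log10 of open calls was 4.13 ± 0.27 (SD, n = 14) at the 8-cell stage and 3.99 ± 0.33 (SD, n = 67) at the 2-cell stage. That difference of 0.135 did not pass (two-sided permutation test over embryos, p = 0.154, adjusted p = 0.262 over the 9 embryo measures). Without embryo blastomere_615, the shallowest at the 8-cell stage, it was 0.193. The most and least deeply covered 2-cell embryos, blastomere_565 and blastomere_576, had 4.58 and 2.86. Fewer copies of the DNA in a tube and less open chromatin per copy cannot be told apart from open calls.

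Stage and title prefix were nearly confounded. All 14 8-cell embryos had title prefix 15287, as did 3 of the 2-cell embryos (blastomere_579, blastomere_591 and blastomere_592), while the other 64 2-cell embryos had prefix 15286. Whether a prefix marks a batch of processing is not stated. Results are therefore also given within prefix 15287, where the smallest p that 3 embryos against 14 can give is 0.00147. There the log10 of open calls differed by 0.147 (exact permutation test, p = 0.406).

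Relative coverage describes how much of a blastomere's signal falls in a block: the calls in that block over the calls expected from the blastomere's total, so that 1 is the average. It was computed for blastomeres with at least 2000 calls inside the numbered blocks, 89 of them at the 8-cell stage, and they covered 14 and 65 embryos. The stages differed in how evenly the blocks were covered. At the 8-cell stage most embryos had coverage close to 1 across the blocks. At the 2-cell stage most blastomeres had blocks well above 1 beside blocks with few calls.

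**Figure D1:**
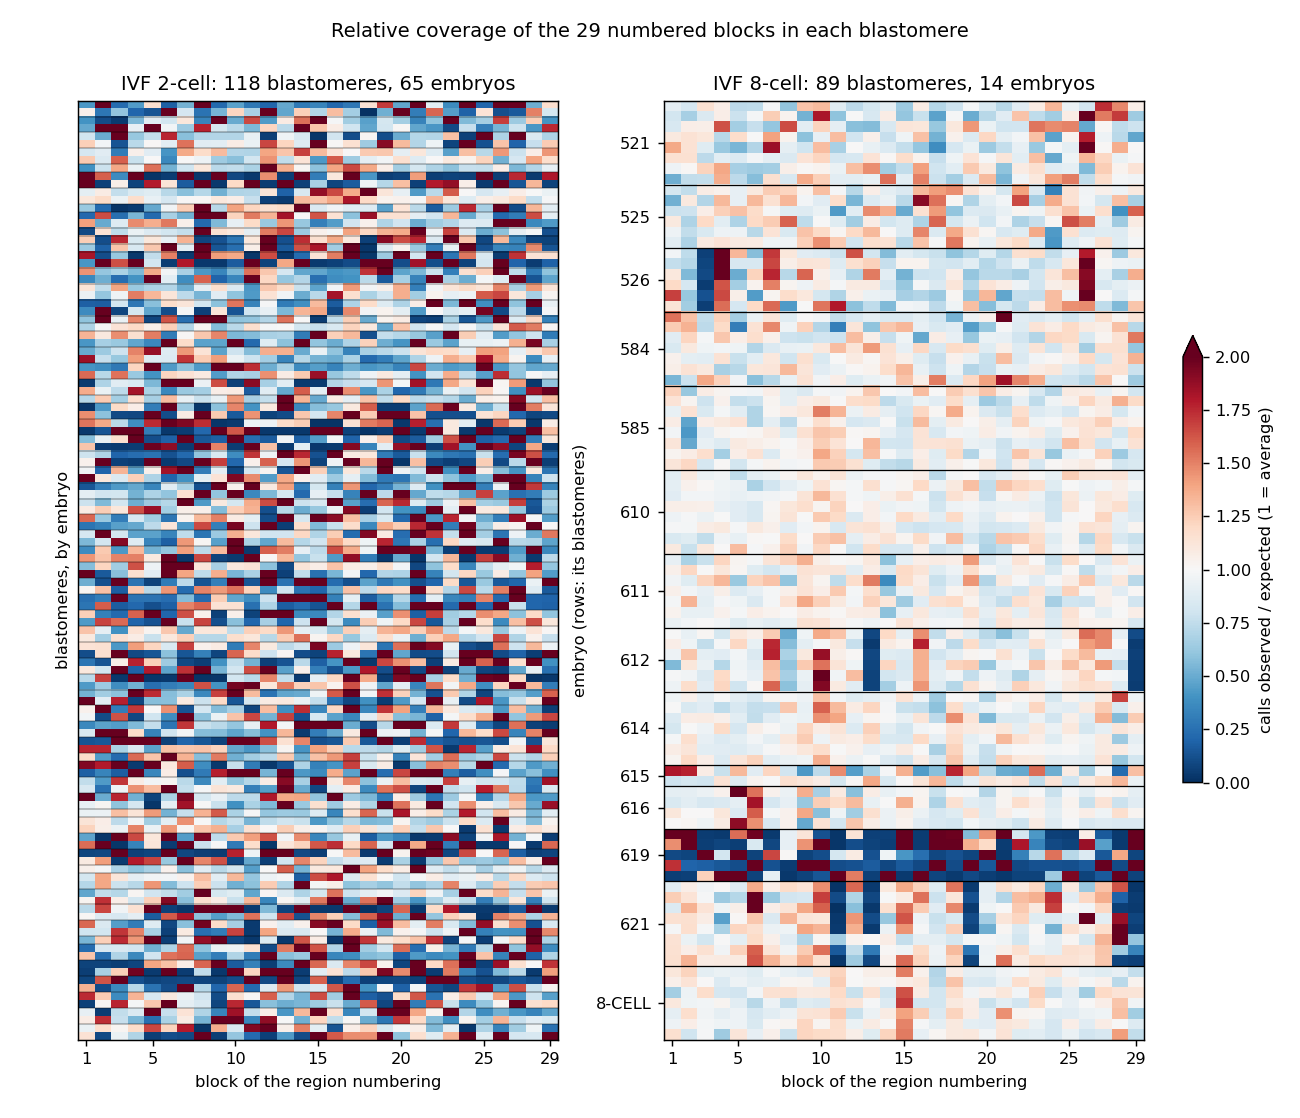
Relative coverage (colour, calls observed over expected, with values over 2 drawn in the darkest red) of the 29 numbered blocks (horizontal axis) in each blastomere (rows), for 65 2-cell embryos on the left and 89 blastomeres of 14 8-cell embryos on the right, with lines between embryos. Most 8-cell embryos are pale throughout, embryos blastomere_526, blastomere_612 and blastomere_621 have dark blue columns shared by most of their blastomeres, and embryo blastomere_619 and most 2-cell embryos are dark in both colours.

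The unevenness of an embryo was taken as the SD of relative coverage over the 29 blocks, averaged over its blastomeres. Among the 8-cell embryos it was lowest in embryo blastomere_610 (0.135), had a median of 0.268 and was highest in embryo blastomere_619 (1.41). Among the 65 2-cell embryos with a value it was lowest in embryo blastomere_541 (0.259), had a median of 0.738 and was highest in embryo blastomere_559 (1.44). The groups overlapped in range: 6 of the 14 8-cell embryos lay below every 2-cell embryo and the others lay within the 2-cell range. Of the 65 2-cell embryos, 1 lay at or below the 8-cell median. Apart from embryo blastomere_619, the highest 8-cell value was 0.462 (embryo blastomere_621), and 56 of the 65 2-cell embryos lay above it.

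Mean unevenness was 0.348 ± 0.321 (SD, n = 14) at the 8-cell stage and 0.751 ± 0.243 (SD, n = 65) at the 2-cell stage. The difference of -0.403 passed the two-sided permutation test with p = 1e-05, the smallest that 100000 resamples can give (adjusted p = 4.5e-05). It kept its direction within prefix 15287, at -0.339, where the 2-cell embryos blastomere_579, blastomere_591 and blastomere_592 had 0.672, 0.690 and 0.699 and 13 of the 14 8-cell embryos lay below all of them. That smaller comparison did not pass (exact permutation test, p = 0.0853, adjusted p = 0.256). With every blastomere thinned to 2000 calls in the blocks the difference was -0.386.

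The correlation of coverage among the blastomeres of an embryo was also higher at the 8-cell stage. For each embryo the Pearson correlation of block coverage was averaged over its pairs of blastomeres. In 12 of 14 8-cell embryos this value was above 0, with a median of 0.280, from -0.795 in embryo blastomere_615 to 0.767 in embryo blastomere_612. In 45 of the 53 2-cell embryos with a pair of usable blastomeres it was below 0, with a median of -0.382, from -0.868 in embryo blastomere_536 to 0.360 in embryo blastomere_507. In most 2-cell embryos, then, the blocks with high coverage in one sister tended to have low coverage in the other.

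The mean correlation was 0.228 ± 0.377 (SD, n = 14) at the 8-cell stage and -0.346 ± 0.309 (SD, n = 53) at the 2-cell stage. The difference of 0.574 passed the two-sided permutation test with p = 1e-05, again the smallest possible (adjusted p = 4.5e-05). Within prefix 15287 it was 0.558. There the exact permutation test gave p = 0.0279, which did not pass once adjusted (adjusted p = 0.0838). Embryo blastomere_615 had only 2 blastomeres with enough calls, and embryo blastomere_619, the other 8-cell embryo below 0, had a value of -0.131. A mean over all pairs of an embryo has a floor that rises towards 0 as blastomeres are added. An 8-cell embryo with several usable blastomeres therefore could not reach the lowest values of a 2-cell pair. How much of the difference follows from the number of blastomeres was not tested.

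**Figure D2:**
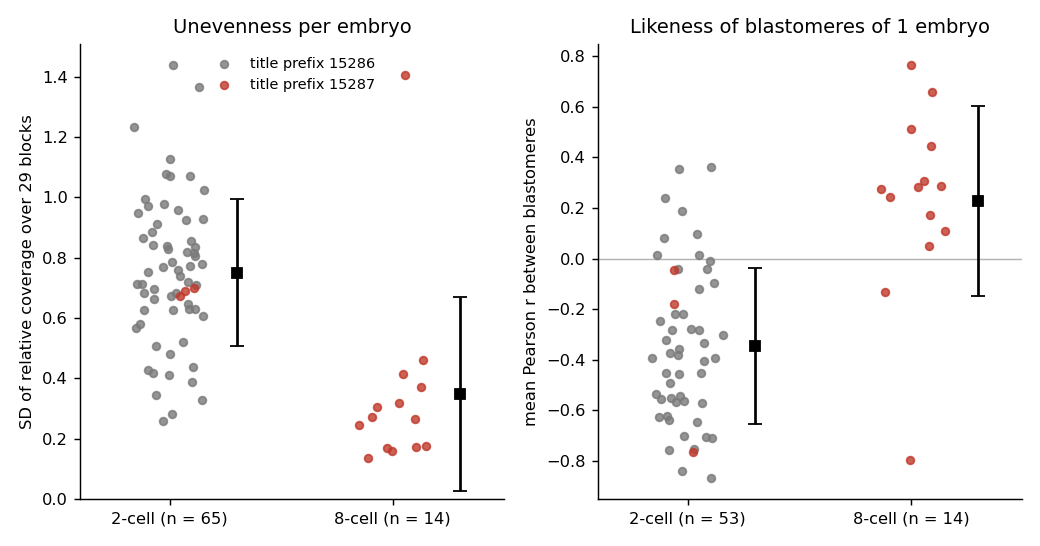
Unevenness of block coverage (left, SD over 29 blocks) and mean Pearson correlation of block coverage between blastomeres of an embryo (right), with 1 point per embryo coloured by title prefix and black squares with bars for the mean and SD of each stage. The 8-cell points lie mostly below the 2-cell points on the left, apart from embryo blastomere_619 at 1.41, and mostly above 0 on the right, where most 2-cell points lie below 0.

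A block was called absent from a blastomere when its relative coverage was under 0.1. At the 2-cell stage 67 of the usable blastomeres lacked at least 1 block (56.8%, exact Clopper-Pearson 95% interval 47.3 to 65.9, counting error only), and they came from 44 of 65 embryos. At the 8-cell stage 22 of 89 blastomeres did (24.7%, interval 16.2 to 35.0), and they came from 4 of 14 embryos. Those were embryos blastomere_526 (5 of 6 blastomeres), blastomere_612 (6 of 6), blastomere_619 (5 of 5) and blastomere_621 (6 of 8). The 10 others, embryos blastomere_521, blastomere_525, blastomere_584, blastomere_585, blastomere_610, blastomere_611, blastomere_614, blastomere_615, blastomere_616 and the one labelled 8-CELL, lacked no block in any usable blastomere. Both intervals treat the blastomeres of an embryo as independent, although absences gathered in a few embryos. They therefore cannot be used to compare the stages, for which the values per embryo are given next.

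Per embryo, the share of blastomeres with an absent block was 25.6% ± 42.4 (SD, n = 14) at the 8-cell stage and 55.4% ± 43.4 (SD, n = 65) at the 2-cell stage. That difference of -29.8 percentage points had p = 0.0265 by two-sided permutation, and it did not pass after adjustment over the 9 measures (adjusted p = 0.0796). With absence set at under 0.05 of the expected calls it was -17.6 points and did not pass (permutation p = 0.0938, adjusted p = 0.262). It passed when absence meant under 0.25 of the expected calls (-49.5 points, adjusted p = 0.00024), when each blastomere was thinned to 2000 calls (-38.4 points, adjusted p = 0.00465), with a minimum of 4000 calls (-39.2 points, adjusted p = 0.00795). It also passed when embryo blastomere_526, blastomere_612, blastomere_619 or blastomere_621 was left out (-34.2, -35.5, -35.5 and -33.6 points, adjusted p from 0.0262 to 0.0316). Those were the only 8-cell embryos with an absent block, so leaving any of them out had to widen the difference and adds no support. Without embryo 8-CELL, which lacked no block, the difference was -27.8 points and did not pass (permutation p = 0.0406, adjusted p = 0.122). Within prefix 15287 it was -41.1 points (exact permutation test, p = 0.0927). The number of absent blocks per blastomere was 1.09 ± 2.65 (SD, n = 14) against 2.29 ± 2.83 (SD, n = 65), which did not pass (difference -1.20, permutation p = 0.150, adjusted p = 0.262). Embryo blastomere_619, with 9.8 absent blocks per blastomere, supplied most of the 8-cell mean: without it the difference was -1.87, and the highest 2-cell embryo, blastomere_505, had 11.

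The sharing of an absence among the cells of an embryo is described next, with no test. Among the pairs of embryo and block in which at least 1 sister blastomere of a 2-cell embryo lacked the block, both sisters lacked it in 5 (1.97%). These were block 5 in embryo blastomere_596, block 25 in embryo blastomere_604, blocks 6 and 11 in embryo blastomere_605, and block 1 in embryo blastomere_608. In the remaining pairs the other sister's relative coverage of that block had a median of 1.53, and it was above 1 in 77.9% of them. At the 8-cell stage there were 34 such pairs, 27 of which had the block absent from at least 2 blastomeres. Pairs from 1 embryo are not independent, 26 of the 34 came from embryo blastomere_619, and an 8-cell embryo offers more blastomeres in which a block can be absent.

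Individual embryos show both patterns. In 2-cell embryo blastomere_592, from the same prefix as the 8-cell embryos, the first sister covered blocks 5, 7, 9 and 12 at 1.67, 1.80, 1.36 and 2.38 of expectation, where the second had 0.0605, 0.0972, 0.0553 and 0.0697. For blocks 8 and 24 the order turned: the first sister had 0.0173 and 0.0355, and the second 2.72 and 2.11. The sisters of this embryo therefore lacked different blocks, and each was high where the other was low.

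In 8-cell embryo blastomere_612, block 13 was at 0.0878, 0.0412, 0.0920, 0.0811, 0.0749 and 0.0755 in its 6 usable blastomeres. Block 29 was at 0.104, 0.0511, 0.0672, 0.0560, 0.0578 and 0.0495 in the same cells. Both blocks were thus nearly empty in every blastomere measured. In embryo blastomere_526 the same held for block 3, at 0.0690, 0.0808, 0.0961, 0.0532, 0.131 and 0.0624. In that embryo block 26 was high throughout, from 1.47 to 2.47, as was block 4, from 1.56 to 2.29.

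The blastomeres of embryo blastomere_621 differed from each other in the same few blocks. In blastomeres A to E and H, blocks 11, 13, 19 and 29 ranged from 0.0122 to 0.125. Blastomere F covered those blocks at 0.658, 1.00, 0.980 and 0.614, and blastomere G lay between, at 0.160, 0.294, 0.272 and 0.336. Block 28 split the cells another way. It was at 0.0567, 0.0827 and 0.195 in blastomeres C, H and B, at 0.656 in G, and from 1.63 to 2.55 in A, D, E and F. Embryo blastomere_619 differed from all of these: 26 blocks were absent from at least 1 of its 5 blastomeres, and none was absent from more than 3.

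Blocks 13 and 29 were the most often absent at the 8-cell stage, from 15.7% and 14.6% of blastomeres. Each was absent in blastomeres of 3 embryos, blastomere_612, blastomere_619 and blastomere_621, so these shares rest on 3 embryos. Blocks 3 and 11 followed, with 7.87% each, while blocks 10, 12, 27 and P were absent from none of the 89 blastomeres. Block Q was absent from 7.87% too, but it has only 400 regions and few calls per blastomere. With each blastomere thinned to 2000 calls in the numbered blocks, Q was absent from 32.6%, so its share depends on depth. At the 2-cell stage blocks 9 and 28 were absent from 11.9% of blastomeres each, and blocks 12 and 25 from 13 blastomeres each. Block P was absent from 0.85%, the lowest share at that stage, and among the numbered blocks 17 and 27 (1.69% each) and 22 (5.08%) were the lowest.

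Over all embryos, no difference between the stages in the average coverage of a block passed. The largest was in block 17, at 0.928 ± 0.226 (SD, n = 14) at the 8-cell stage against 1.23 ± 0.686 (SD, n = 65). With such spread, differences of this size could be missed. Of the 31 blocks tested (29 numbered blocks, P and Q), 0 passed an adjusted p of 0.05 (0.0%), and 0 had an unadjusted permutation p under that value. Within prefix 15287, block 12 was lower at the 8-cell stage, at 0.939 ± 0.0981 (SD, n = 14) against 1.26 ± 0.197 (SD, n = 3) (exact permutation test, p = 0.00147, adjusted p = 0.0456).

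Blocks P and Q, at the end of the numbering, were also measured for every embryo. Mean coverage of P was 1.23 ± 0.234 (SD, n = 14) at the 8-cell stage and 1.17 ± 0.437 (SD, n = 65) at the 2-cell stage, a difference of 0.0551 (permutation p = 0.648). Among 2-cell embryos, P was lowest in embryo blastomere_533 (0.206) and highest in embryo blastomere_591 (2.68). Mean coverage of Q was 0.439 ± 0.332 (SD, n = 14) against 0.444 ± 1.15 (SD, n = 65), a difference of -0.00592 (permutation p = 0.993). Within prefix 15287 the differences were -0.443 in P and 0.151 in Q (exact permutation tests, p = 0.138 and 0.375). The 2-cell mean of Q rests on embryo blastomere_542, at 9.54, where blastomere B had 63 calls in Q among 4360 and blastomere A had 1 among 5351. Without embryo blastomere_542 the 2-cell embryos averaged 0.302 ± 0.150 (SD, n = 64) and the difference was 0.136, which did not pass once adjusted (permutation p = 0.0230, adjusted p = 0.0597).

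The 8-cell embryo labelled 8-CELL, with letters where the others have a number, stood apart from its group in both blocks. Its coverage was 0.683 in P and 1.52 in Q, while the other 13 8-cell embryos lay from 0.834 to 1.55 in P and from 0.0429 to 0.480 in Q. All 7 of its usable blastomeres had Q between 0.966 and 1.92, a level reached by 2 of the 82 blastomeres of the other embryos. The 21 SCNT 8-cell embryos of the series, measured the same way, had a median of 0.729 in P, with a lowest value of 0.509, and a median of 1.73 in Q, from 0.810 to 3.90. Its place in the IVF group rests on its label. Without it, the difference in unevenness was -0.390, that in the correlation within embryos 0.557 and that in the share of blastomeres lacking a block -27.8 points, and Q was 0.355 ± 0.116 (SD, n = 13) at the 8-cell stage.

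**Figure D3:**
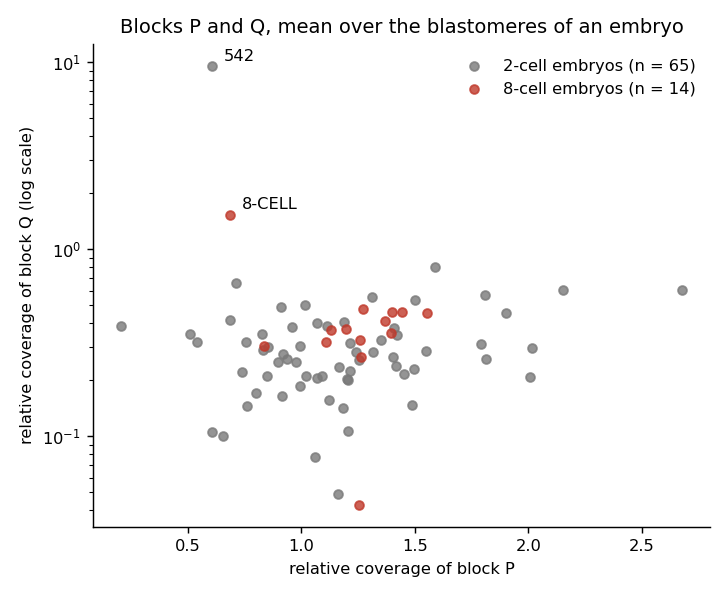
Relative coverage of block P (horizontal) and block Q (vertical, log scale), with 1 point per embryo, for 65 2-cell and 14 8-cell IVF embryos. Embryo 8-CELL lies at 0.683 in P and 1.52 in Q, apart from the other 8-cell embryos, and 2-cell embryo blastomere_542 lies highest at 9.54 in Q.

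A pair of measures across all regions did not pass between the stages. Commonly open regions were the 2387 open in at least 50% of 264 blastomeres that belong to neither stage and have at least 8000 calls. With each blastomere thinned to 2000 calls, their share of the calls was 15.4% ± 6.92 (SD, n = 14) at the 8-cell stage and 16.6% ± 6.33 (SD, n = 65) at the 2-cell stage (permutation p = 0.535). It ranged from 5.46% in embryo 8-CELL to 32.6% in embryo blastomere_615 among 8-cell embryos, and from 5.12% in embryo blastomere_557 to 30.2% in embryo blastomere_597 among 2-cell embryos. The Jaccard index between blastomeres of an embryo, less that with other embryos of the stage and prefix, at 1000 calls per blastomere, was 0.00366 ± 0.0109 (SD, n = 14) against 0.000725 ± 0.00634 (SD, n = 61). That did not pass either (difference 0.00293, permutation p = 0.174). Embryo blastomere_615 alone, at 0.0413, supplied most of the 8-cell mean, and without it the difference was 3.50e-05. Within prefix 15287 the differences were -0.875 points in the share and 0.00339 in the index.

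Single regions were then compared between the stages. A region's open blastomeres, summed per embryo, were set against the number expected from the calls of each blastomere in that block and class of openness, so that an absent block lowers both alike. Of 137121 regions open in at least 10% of the embryos, 6670 passed an adjusted p of 0.05 (4.86%). At the 8-cell stage 4054 of them were open more often (2.96% of those tested) and 2616 less often (1.91%). The filter counts embryos of both stages together, and the regions called higher were open in a median of 8 8-cell and 3 2-cell embryos, some of them in no 2-cell embryo. Many could therefore enter the test only through the stage where they were high, and the counts in each direction and the median ratios describe the regions that passed this filter. The median log2 ratio of observed over expected, 8-cell to 2-cell, was 2.95 among the regions open more often and -2.50 among those open less often, over regions with a call at both stages. With regions that had no call at a stage included, these medians were 3.01 and -2.68, and the median over all tested regions was -0.21, or -0.26 with them. The share open more often among the called regions was 60.8%. It was 73.6% with 1 factor per blastomere over all regions, 73.5% with a factor per block only, and 83.8% with a factor from commonly open regions. The balance turned with the filter: among regions open in at least 25% of the embryos, 2829 of 24705 passed, of which 19.3% were open more often and 2283 were open less often.

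Within prefix 15287 no region passed by the larger p of the limma-moderated quasi-Poisson test and an exact binomial test, as used above. There 207074 regions were tested against 3 2-cell embryos, and 1.11% had an unadjusted p under 0.05. Leaving out every blastomere that lacked a block left 0.749% of 75948 tested regions past the threshold, of which 19.5% were open more often, from 13 8-cell and 40 2-cell embryos. Of the regions so called, 96% were among the 6670 and moved the same way. Single 8-cell embryos weighed on the count, which was 3744 (2.85% of those tested) without embryo blastomere_610, 3756 (2.89%) without embryo blastomere_611 and 4805 (3.7%) without embryo 8-CELL.

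Among the called regions, the 2 directions differed in how common their regions were elsewhere. In the 264 blastomeres of other stages and of SCNT embryos, the regions open more often at the 8-cell stage were open in a median of 9.47% and those open less often in a median of 12.1%, against 6.06% for all tested regions. Among regions open in under 5% of those blastomeres, 1.22% were called higher and 0.168% lower. Between 10% and 25% the shares were nearly equal, at 5.34% and 5.28%. Among the 2387 regions open in 50% or more, 26 were called in each direction, 1.09% each. These shares cannot be compared between classes as a measure of change: a region already open in 50% of blastomeres has little room to rise, and the number of calls per region moves with the class. Nor can the directions be compared within a class of rare regions. A rare region has few expected calls to lose, and it can pass the filter through 8-cell embryos alone. The medians of the 2 directions carry the same limit.

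**Figure D4:**
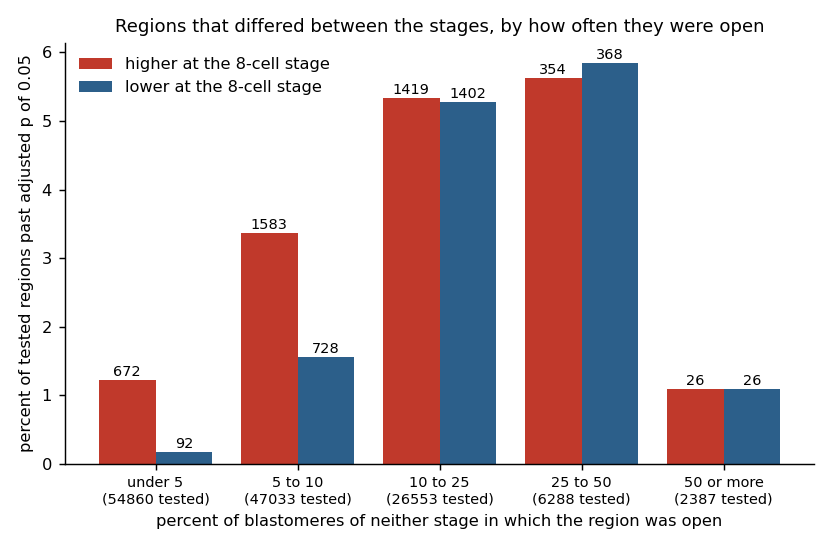
Percent of tested regions past an adjusted p of 0.05 (vertical) by the percent of blastomeres of neither stage in which the region was open (horizontal, with the number tested), with the number of regions above each bar. Regions open more often at the 8-cell stage (red) outnumber those open less often (blue) below 10%, and the bars are alike above it.

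The called regions were spread over the numbering. In the 29 numbered blocks, between 3.36% (block 11) and 6.06% (block 27) of the tested regions were called. Block P had 10.7%, with 5.34% in each direction, and the longest part of the mixed segment had 8.01%, with 5.10% higher and 2.91% lower. The first 990 regions of the mixed segment had 7.04%. In the dense stretch of 3600 regions that follows them, open in 27% of all region-by-blastomere values, 2.60% were called. Block Q had 33 tested regions, of which 4 were called, all open less often at the 8-cell stage.

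The 6 regions with the smallest p in each direction are described next. They were picked by p from regions that passed the filter, so their sizes describe these regions only. Region V101328, in block 11, was open in 7 8-cell blastomeres (6.80%), against 50.4 expected, and in 77 2-cell blastomeres (60.2%), against 33.6 expected. At the 8-cell stage the 7 calls came from 5 of 14 embryos, 2 each from embryos blastomere_521 and blastomere_525 and 1 each from blastomere_612, blastomere_619 and blastomere_621. At the 2-cell stage 53 of 66 embryos had it open. The log2 ratio was -4.04 ± 0.34 (SE). Its adjusted p was 8.71e-18, from the larger of the moderated score p and an exact binomial p. Of the 6 blastomeres of 2-cell embryos with prefix 15287, 5 had it open, the highest number among the 6 regions named in this direction.

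Region V42505, in block 4, was open in 4 8-cell blastomeres (3.88%), 3 of them from embryo blastomere_610, and in 66 2-cell blastomeres (51.6%). Its log2 ratio was -4.45 ± 0.54 (SE), and -6.26 without embryo blastomere_610. Region V15907, in block 1, was open in 5 (4.85%) and 62 (48.4%) blastomeres, the 5 from as many embryos. The other 3, V94750 in block 10, V243270 in block 27 and V217057 in block 25, were open in 14.6%, 14.6% and 10.7% of 8-cell blastomeres and in 58.6%, 66.4% and 52.3% of 2-cell blastomeres. All 6 were open in 47 to 56 of the 66 2-cell embryos. Regions V101328, V42505, V15907 and V217057 were open in 5, 2, 5 and 6 8-cell embryos, under 10% of all embryos tested. Those regions passed the filter only with the 2-cell embryos, where they were high. Among the 6 blastomeres of 2-cell embryos with prefix 15287, V42505, V94750 and V217057 were each open in 2, V15907 in 3 and V243270 in 4.

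The 6 named regions open more often at the 8-cell stage were open in 0.781% to 13.3% of 2-cell blastomeres. Region V188534, in block 23, was open in 41 8-cell blastomeres (39.8%), from 11 of 14 embryos, and in 1 2-cell blastomere (0.781%). With 1 count at the 2-cell stage its log2 ratio of 5.14 ± 1.19 (SE) is imprecise. Region V135309, in block 14, was open in 48 blastomeres of 11 8-cell embryos and in 2 blastomeres of 2-cell embryos, a log2 ratio of 4.26 ± 0.83 (SE). Region V294537, in the mixed segment, was open in 65% and 13.3% of blastomeres at the 8-cell and 2-cell stages. Regions V297676 and V283682, also in the mixed segment, were open in 38.8% and 43.7% of 8-cell blastomeres and in 3.12% and 5.47% of 2-cell blastomeres. Regions V188534, V135309, V297676 and V283682 were open in 1, 2, 4 and 7 2-cell embryos, under 10% of all embryos tested. Those regions passed the filter only with the 8-cell embryos, where they were high.

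Region V275044, in the dense stretch, had the smallest p in this direction. It was open in 47 8-cell blastomeres (45.6%) and 10 2-cell blastomeres (7.81%), with a log2 ratio of 2.86 ± 0.41 (SE). Its adjusted p was 6.49e-08, from the larger of the moderated score p and an exact binomial p. Calls came from 13 of 14 8-cell embryos, including all 8 blastomeres of embryo blastomere_610, all 7 of embryo blastomere_611 and all 6 of embryo blastomere_525, while embryo 8-CELL had none in 8. None of these 6 regions was open in any of the 6 blastomeres of 2-cell embryos with prefix 15287, a number too small to set them apart at this depth. In SCNT 8-cell embryos they were open in 4.26% to 9.93% of blastomeres, and in IVF 4-cell embryos in 12.7% to 38% of 71.

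Because prefix and stage were nearly confounded, the region test was repeated without the 3 2-cell embryos of prefix 15287. It called 6069 of 133112 tested regions (4.56%), 3665 of them higher and 2404 lower at the 8-cell stage. Of those called, 5871 were shared with the first list in the same direction. The share of calls falling in these sets was then read in the embryos left out, with each blastomere thinned to 2000 calls. For the regions called higher, the 3 embryos blastomere_579, blastomere_591 and blastomere_592 had 0.900%, 0.725% and 0.800%. That lay within the 0.250% to 1.08% (median 0.650%) of the 62 2-cell embryos of prefix 15286, and below all 14 8-cell embryos, which ran from 1.18% to 7.01% (median 4.69%).

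For the regions called lower, embryos blastomere_579, blastomere_591 and blastomere_592 had 4.17%, 3.62% and 3.65%. The 2-cell embryos of prefix 15286 ran from 1.93% to 7.45% (median 3.85%), and the 8-cell embryos from 0.579% to 2.24% (median 0.776%), all below the 3 embryos. In both sets the 3 embryos lay within the range of the other 2-cell embryos. The 8-cell and prefix 15286 values chose the regions and are given as a description, with no test.

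The 8-cell embryos were not alike in these sets. Embryos blastomere_610, blastomere_614, blastomere_611, blastomere_521, blastomere_612 and blastomere_584 had 5.62% to 7.01% of their calls in regions called higher. Embryos 8-CELL, blastomere_616, blastomere_585 and blastomere_621 had 3.19% to 4.84%, and embryos blastomere_525, blastomere_526, blastomere_619 and blastomere_615 had 2.13%, 1.69%, 1.30% and 1.18%. In the set called lower, these last 4 had 2.10%, 1.82%, 2.24% and 1.48%, where embryos blastomere_610 and blastomere_611 had 0.688% and 0.586%. Embryo blastomere_521, among the highest in the first set, had 1.56% in the set called lower, so the order of the embryos differed between the sets. The 4 embryos with the smallest share in the set called higher included 2 of the 4 that lacked blocks (blastomere_526 and blastomere_619) and the shallowest embryo (blastomere_615). Whether block loss or depth moves these shares was not tested.

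IVF 4-cell embryos, which were in neither group of the test that called the regions, spread over the range between the stages. Blastomeres of neither stage, 4-cell ones included where they had at least 8000 calls, did set the classes of openness. Of the 20 4-cell embryos, 10 had no more calls in the regions called higher than the highest 2-cell embryo, and 4 had over 3%. Under prefix 15286 the 15 embryos ran from 0.750% to 4.74% (median 1.08%), and under prefix 15287 the 5 embryos ran from 0.925% to 5.53% (median 1.18%). Whether the prefix moves these shares was not tested. The SCNT 8-cell embryos had 1.06% ± 0.296 (SD, n = 12) under prefix 15243 and 1.89% ± 1.61 (SD, n = 9) under prefix 15244, with a highest value of 5.31%.

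**Figure D5:**
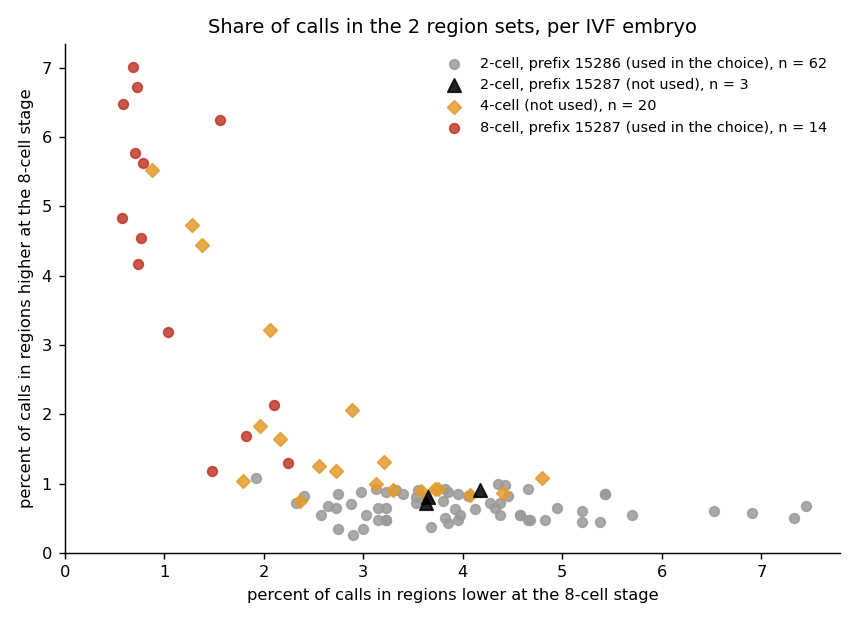
Percent of calls in regions lower at the 8-cell stage (horizontal) and in regions higher at it (vertical), per IVF embryo at 2000 calls per blastomere, with regions chosen without the 2-cell embryos of prefix 15287 (black triangles). The triangles lie among the other 2-cell embryos (grey), the 8-cell embryos (red) run up the left side to 7.01%, and the 20 4-cell embryos (orange) spread from one group to the other.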

How the data were processed

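Single-blastomere ATAC-seq libraries were analysed from the authors' deposited table of 0 and 1 values, whose unit is an open or closed call and not a read count. It holds 302830 regions and 819 blastomeres, and 0 columns were left without a title. The members were 232 blastomeres, 103 at the 8-cell stage and 129 at the 2-cell stage, with 611 to 46836 and 726 to 106279 open calls. Block coverage used 89 and 118 of them, and the region test 103 and 128. No label or header names the genome build, the peak caller or the rule for an open call. The submitters' processing notes name FastQC 0.10.1, Bowtie2 2.2.6 and bedtools. Columns were tied to titles by their running numbers, an inference that no label or header states. Groups followed the cell number in the titles. Members, lists and tests were chosen with earlier results of these data known.

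Block boundaries were placed where the correlation between neighbouring bins of 100 regions over 419 blastomeres fell below 0.35, and refined to 10 regions after a first set of values had been seen, because block 29 had run into the mixed segment. Stage was not used. Blastomeres needed 2000 calls in the numbered blocks. Embryo means were compared by two-sided permutation (100000 resamples, exact within prefix 15287), with Benjamini-Hochberg adjustment over 9 measures or 31 blocks. The smallest attainable p was 1e-05.

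For regions, embryos needed 1000 calls, which left 14 and 66 embryos. The expected openness of each blastomere was fitted within block and class of openness (edges at 5, 10 and 25% of 264 blastomeres of neither stage), and a quasi-Poisson score test with dispersions moderated by limma 3.58.1 was used, taking the larger of its p and an exact binomial p. The exact binomial test sums calls over blastomeres and holds no spread between embryos. On simulated data with these samples' totals, 143593 regions tested and 200 of them changed, taking the larger p called 69.7% of regions raised 8-fold, 21.2% of those lowered 8-fold, 6.1% and 5.9% of those changed 4-fold, 0 of those changed 2-fold, and 0 of 143393 unchanged regions. Each simulated blastomere was drawn independently, so no added spread between embryos was present. The changed regions had a mean fitted openness above 10%, while the real tested regions were open in a median of 6.06% of the 264 blastomeres. These figures need not hold for the real embryos or for rarer regions. The folds multiply a fitted rate from which the chance of an open call follows, so they are not ratios of observed over expected calls. Regions raised 8-fold had a median log2 ratio of 1.65, and those lowered 8-fold -2.57. With 4-fold changes the medians were 1.27 and -1.74. Few changes of rate below 8-fold were called in this simulation. Named regions were the 6 with the smallest p in each direction. Named embryos were all 8-cell embryos, the 2-cell embryos of prefix 15287 and the extremes of each measure, and named blocks were P, Q and those most and least often absent. The 2-cell embryo whose number, blastomere_537, recurs under the other prefix had 1.07 in unevenness and 0.0822 in correlation. Where nothing says that embryos came from separate parents, p-values measure the spread between these embryos only. Alternatives covered call minimums, thinning, thresholds, prefixes, blastomere factors and leaving out embryos. Python 3.11.15, numpy 2.4.6 and scipy 1.17.1 were used.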

Additional observations from a re-analysis of the deposited data

Results flagged for a closer look

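In 2 of the 14 8-cell embryos, 1 blastomere had far fewer open calls than its sisters, by Dixon's ratio on the log10 scale at the 95% level. Chance alone gives about 1 such group in 20. The lowest blastomere of embryo blastomere_525 had 6505 open calls, where the next had 14154. The lowest blastomere of embryo 8-CELL had 1666, where the next had 23656, and it had too few calls in the numbered blocks to enter the measures of block coverage.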

How the results depend on the processing

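Of the embryo measures, unevenness and the correlation within embryos kept their direction in every alternative run, and both fell short of the adjusted threshold only within prefix 15287 (-0.339 and 0.558), where 3 2-cell embryos remained. Leaving out each 8-cell embryo in turn gave -0.485 to -0.387 for unevenness and 0.532 to 0.652 for the correlation. The share of blastomeres with an absent block ran from -35.5 to -27.8 points over the same settings, and passed the adjusted threshold without embryo blastomere_526, blastomere_612, blastomere_619 or blastomere_621, with 4000 calls (-39.2), with thinning (-38.4) and below 0.25 (-49.5), but not below 0.05 (-17.6). Those embryos were the only 8-cell ones with an absent block, so leaving any of them out had to widen this difference. Measures that did not pass changed sign in some settings: block P within prefix 15287 (-0.443) and without blastomeres that lack a block (-0.000553), block Q within prefix 15287 (0.151), without embryo blastomere_542 (0.136) and over the 8-cell embryos left out in turn (-0.0894 to 0.0245), and the share of calls in common regions when common meant open in 25% or more (2.27). Absent blocks ran from -1.87 to -1.11, open calls from 0.107 to 0.193, block P from 0.0299 to 0.0968, common regions from -2.50 to -0.416 and the Jaccard excess from 3.50e-05 (without embryo blastomere_615) to 0.00337 when embryos were left out. Of the blocks, 1 passed within prefix 15287. The share of tested regions called, 4.86%, was 8.77% (12031 regions) with 1 factor over all regions, 9.34% (12810) with a factor from commonly open regions, 11.5% (2829, of which 19.3% were higher) for regions open in 25% of embryos or more, 10.8% (14876) with the score test alone, 0.749% without blastomeres that lack a block, 0 of 207074 within prefix 15287 (larger p of the limma-moderated and exact binomial tests, 2301 at an unadjusted p under 0.05) and 0 of 2719 with embryos thinned to equal totals (74 at an unadjusted p under 0.05). It ran from 2.85% (3744 regions, without embryo blastomere_610) to 5.67% (7578, without embryo blastomere_525) when each 8-cell embryo was left out, and was 2.89% (3756) without embryo blastomere_611. The named regions kept their direction in every alternative that tested them and passed in all but those within prefix 15287 and, for the 6 lower ones, with embryos thinned to equal totals. The cause of these changes was not tested. No paired analysis was possible because no embryo was sampled at both stages. Where a named region had no call at a stage under an alternative, no ratio was computed. The setting without the second library of embryo blastomere_537 was not run, since the table used here has no column for it, and block sizes were not set against chromosome lengths. The alternatives without embryo blastomere_542, without the 2-cell embryos of prefix 15287, and for blocks without embryo 8-CELL were chosen after seeing the data.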
